A study of Homo sapiens with 2 samples.

Results

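Aminoacyl-tRNA synthetases join each amino acid to its transfer RNA, and the cell holds them in 2 sets, both encoded in the nucleus. The cytosolic enzymes serve the ribosomes of the cytosol, and the mitochondrial enzymes, whose gene names end in 2, are imported to serve the ribosome of the organelle. When charged tRNA runs short the kinase GCN2 phosphorylates the initiation factor eIF2, translation of the transcription factor ATF4 goes up, and ATF4 with a C/EBP partner is known to induce many cytosolic synthetase genes. The genes described here were chosen by name, 20 cytosolic and 16 mitochondrial, and all 36 were found among the 36814 gene-start windows of the table. GARS and KARS stand in the cytosolic set, although each of these genes encodes both the cytosolic and the mitochondrial enzyme.

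The readout was PRO-seq, in which polymerases engaged on the gene add labelled nucleotides to their transcripts and only such RNA is captured for sequencing. The cells were K562, a human leukaemia line of erythroid character. There were 2 libraries, 1 from cells held in 0.1% DMSO, a common drug solvent, for 1 h, and 1 from untreated cells, so that each treatment had 1 library and no value has a replicate check or a p-value. All differences below are differences between these 2 libraries, and all intervals are at 95% and cover counting error only.

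The DMSO library held 4154920 reads and the untreated library 2136291. The median window past the expression floor (5 CPM on average and 100 reads in all, passed by 6591 windows) had 4.68 DMSO reads for each untreated read, and every log2 ratio is given relative to that window. Beyond counting error the libraries differed by a coefficient of variation of 35.3% per window. Of all 36814 windows 28585 had DMSO reads and 18424 had untreated reads. Of 13 erythroid marker genes 12 had DMSO reads and 11 had untreated reads, 3403 and 1190 in sum, with HBE1, whose window has no base of its own, at 0. The 6 of these markers past the floor had a median log2 ratio of -0.49 and all lay below the median window, as did most cytosolic synthetases described below. Of 15 neural markers 11 had DMSO reads and 2 had untreated reads, 699 and 2 in sum, of which GFAP had 514 and 0. Having DMSO reads does not set these markers apart from all windows. GAD1, MOG, TUBB3 and NEFL were at 0 in both, but the window of TUBB3 has no base of its own and those of GAD1 and NEFL have 458 and 490. The 6 granulocytic and monocytic markers had 78 DMSO and 4 untreated reads, among them CD14 with 40 and 0 and CSF1R with 17 and 0. The part of any of these marker differences in the values below was not tested.

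Many synthetase genes start beside another gene, and this set what the table could hold. Each window spans 6000 bases around an annotated start, and bases shared with another window carried no counted reads: the 1154 windows that other windows cover wholly held 0 reads. Of the 36 synthetase windows 16 shared no base, and 16 had under 1 kb of their own, against 23.7% of all windows. HARS and HARS2, a head-to-head pair on chromosome 5, overlapped each other in all but 108 bases and both had 0 reads. CARS, TARS and WARS among the cytosolic genes, and EARS2 and YARS2 among the mitochondrial ones, were also at 0 in both libraries, with 11 to 388 bases of their own. For 14 members, 8 cytosolic and 6 mitochondrial, none of the bases counted for the window lay inside the gene that gives the window its name. A count of 0 in these windows therefore says nothing of how strongly the gene is transcribed.

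**Figure D1:**
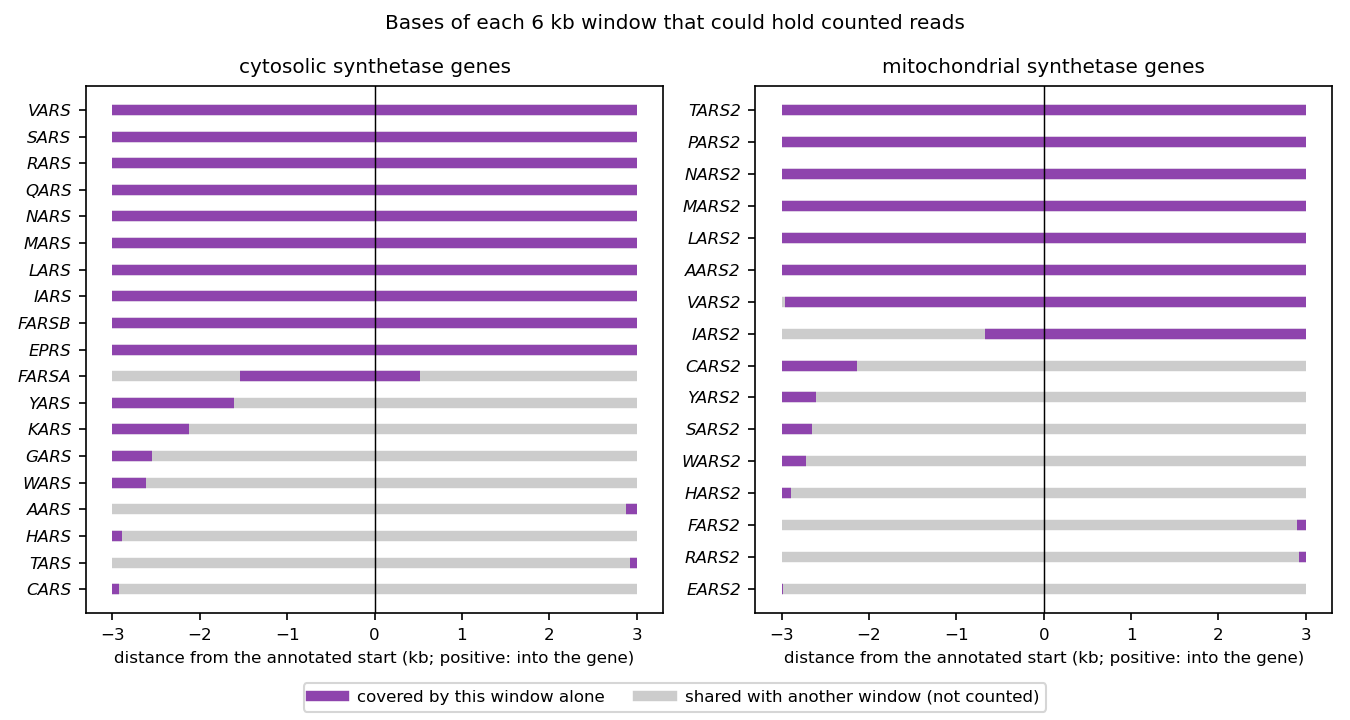
Bases of the synthetase windows covered by that window alone (purple) or shared with another window (grey), by distance from the annotated start in kb, positive into the gene. The windows of QARS, SARS and 14 other members are free over their whole length, and those of HARS and HARS2 keep 108 bases each.

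Within these limits most synthetase windows had reads in both libraries. In all, 23 of the 36 windows reached 1 CPM in both libraries, 12 of the 20 cytosolic and 11 of the 16 mitochondrial ones, against 34.7% of all windows. Among these 23, MARS, YARS, CARS2, SARS2 and WARS2 counted 0 bases inside the gene they are named for. Their reads do not show that gene transcribed. The floor was passed by 17 members, 9 cytosolic and 8 mitochondrial, against 17.9% of all windows. Per kb of unshared bases, in windows with at least 1 kb, the DMSO library had a median of 6.34 CPM over 12 cytosolic and 6.08 CPM over 8 mitochondrial genes. The untreated library had 5.07 and 2.15 CPM per kb for the same genes, while the median over all windows of that length was 0.36 CPM per kb in the DMSO library and 0.08 in the untreated one. The cytosolic median was thus 1.04 times the mitochondrial one in the DMSO library and 2.36 times in the untreated one. The regions compared are not alike. Among the 12 cytosolic windows MARS and YARS counted 0 bases inside their gene and FARSA 190, against 2945 to 3000 in each mitochondrial window. With a minimum of 200 unshared bases, which adds shorter windows, these ratios were 0.73 and 1.07.

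Among windows with at least 1 kb unshared, neighbours in the order of levels had overlapping counting intervals at the top of the cytosolic set: QARS had 290 DMSO reads (interval 258 to 325), IARS 235 (206 to 267) and RARS 231 (202 to 263) over 6000 bases each. In the DMSO library QARS, the glutamine enzyme, was highest of the cytosolic genes with 11.6 CPM per kb, and MARS, the methionine enzyme, was lowest with 1.52. IARS2, the mitochondrial isoleucine enzyme, had 10.4 CPM per kb and TARS2, the mitochondrial threonine enzyme, 3.33 at the other end of its set. In the untreated library SARS, the serine enzyme, was highest of all with 9.13 CPM per kb, and IARS2 highest of the mitochondrial ones with 4.59. For MARS the RefSeq start lies 12623 bases further on, outside its window.

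**Figure D2:**
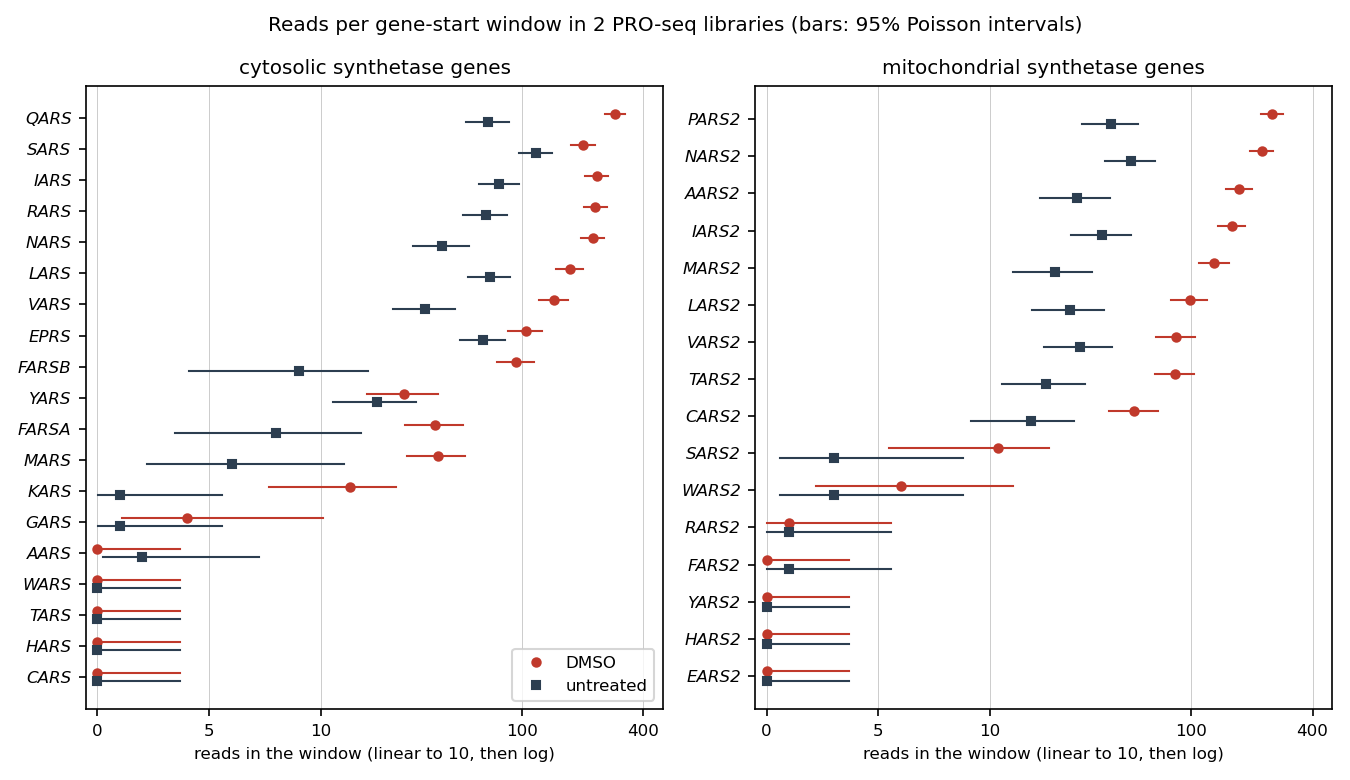
Reads of the synthetase windows in the DMSO library (red circles) and the untreated library (dark squares) with exact 95% Poisson intervals, on an axis that is linear to 10 reads and logarithmic beyond. Windows past the floor hold 83 to 290 DMSO reads, and 7 windows hold none in either library.

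A solvent control serves to stand in for untouched cells, and the ratios below set the synthetase genes of the 2 against each other. EPRS and SARS had the lowest ratios of the synthetase windows past the floor, and both are known ATF4-induced cytosolic genes. EPRS encodes the joined glutamate and proline enzymes and is a member of the multi-synthetase complex. Its window (chromosome 1, 220043531 to 220049530, hg38) had 104 DMSO and 64 untreated reads, a log2 ratio of -1.53 (interval -1.99 to -1.05), or 2.89-fold lower than the median window. Fewer cells with the gene active and less nascent RNA per cell cannot be told apart in such bulk libraries. SARS (chromosome 1, 109210918 to 109216917) had 201 DMSO and 117 untreated reads, a ratio of -1.45 (interval -1.78 to -1.10). Both intervals lay wholly past 2-fold lower, as did those of 2.73% of all windows past the floor. In all, 2 of the 9 cytosolic and 0 of the 8 mitochondrial windows past the floor were at least 2-fold lower, against 7.97% of all windows, so that 2 genes decide this count.

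LARS and IARS, the leucine and isoleucine enzymes of the same complex, were lower by less. LARS had 172 DMSO and 69 untreated reads (log2 ratio -0.91, interval -1.32 to -0.48) and IARS 235 and 77 (-0.62, interval -0.99 to -0.23). VARS, the valine enzyme, had 144 DMSO and 33 untreated reads (-0.12), and NARS, the asparagine enzyme, 225 and 40 (0.25), with intervals that hold the median window. In all 4 cytosolic genes (EPRS, SARS, LARS and IARS) and 1 mitochondrial gene (VARS2) were at least 1.5-fold lower, against 19.6% of all windows. Of the 13 cytosolic genes known as ATF4-induced, a list drawn up with earlier results of these libraries known, 6 passed the floor, with a median of -0.77, 4 of them with intervals wholly below the median window against 24.0% of all windows. All these signs are relative to the median window; scaled to library totals alone the median window stands at 1.27, and every synthetase window past the floor then lies above 0 except EPRS (-0.26) and SARS (-0.18). On the TMM scale without centring the medians were -0.13 for the cytosolic and 0.21 for the mitochondrial windows past the floor.

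The other cytosolic genes had no shared direction. RARS, the arginine enzyme, had 231 DMSO and 66 untreated reads, a log2 ratio of -0.43 whose interval (-0.82 to -0.00) ends at the median window. QARS had 290 DMSO and 68 untreated reads (-0.14, interval -0.52 to 0.27). FARSB, the beta subunit of the phenylalanine enzyme, was the highest of all members with 93 DMSO and 9 untreated reads (1.07, interval 0.16 to 2.32); it passed the floor through its DMSO reads and was the one member past the floor at least 2-fold higher, against 6.86% of all windows. With a prior count of 2 reads in place of 0.5 its ratio was 0.92, under 2-fold. FARSA, the alpha subunit, did not pass the floor, with 37 DMSO and 8 untreated reads in 2056 unshared bases between the windows of CALR and FARSA-AS1. Its ratio of -0.08 had an interval from -1.14 to 1.30, which reaches into that of FARSB.

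The mitochondrial windows lay on either side of the median window. VARS2 was lowest with 84 DMSO and 28 untreated reads (log2 ratio -0.66, interval -1.27 to 0.03), and LARS2 had 98 and 25 (-0.28). TARS2 had 83 DMSO and 19 untreated reads (-0.13), IARS2 159 and 36 (-0.10), and NARS2 224 and 50 (-0.07). The methionine, proline and alanine enzymes were on the other side. MARS2 had 130 DMSO and 21 untreated reads (0.38), PARS2 252 and 40 (0.41), and AARS2 173 and 27 (0.43, interval -0.14 to 1.10). None of the 8 intervals excluded the median window, whereas of all windows 24.0% had intervals wholly below it and 23.2% wholly above, with 19 to 50 untreated reads behind each mitochondrial value.

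**Figure D3:**
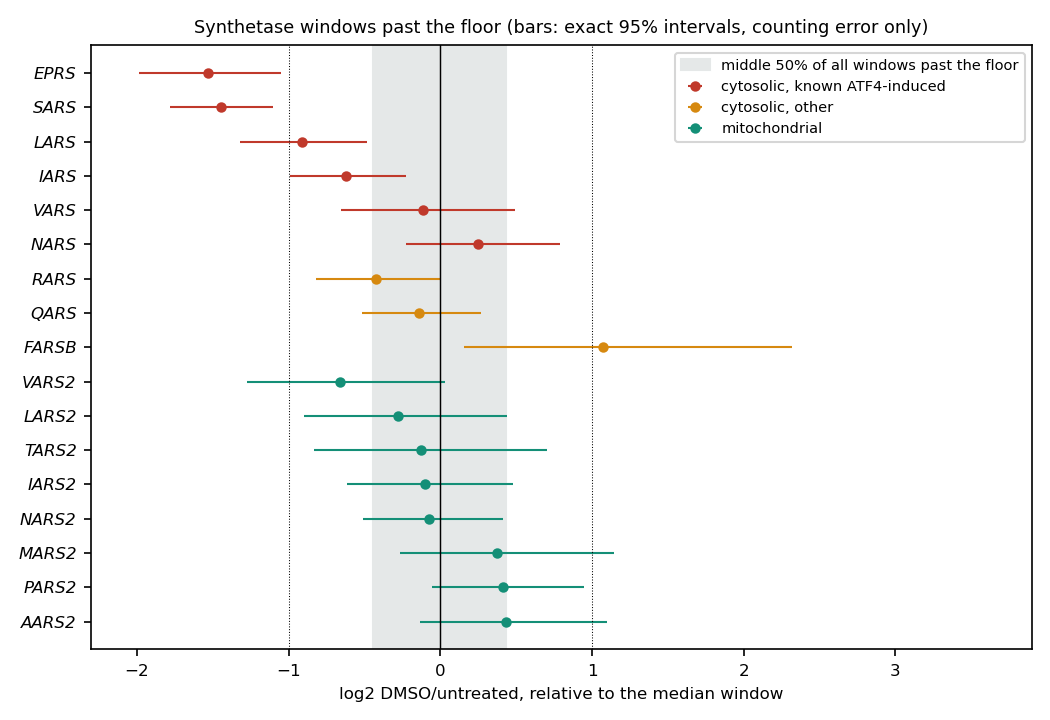
Log2 DMSO/untreated ratio relative to the median window for the 17 synthetase windows past the floor, with exact 95% intervals for counting error, and the middle 50% of all windows as a grey band. EPRS at -1.53 and SARS at -1.45 lie left of the 2-fold line, FARSB at 1.07 right of it, and the 8 mitochondrial genes between -0.66 and 0.43.

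The 2 sets overlapped gene by gene. The median ratio was -0.43 over 9 cytosolic windows and -0.09 over 8 mitochondrial ones, a difference of -0.34. A rough band for it, combined from the counting intervals of the middle members of each set, ran from -0.99 to 0.31. That band holds the counting error of those middle members only and leaves out the spread between genes. It therefore cannot decide whether the medians differ, and no difference of medians is read from it. With a floor of 1 CPM and 20 reads the cytosolic median was -0.16, the mitochondrial one 0.03 and the difference -0.19. With the DMSO library thinned to the untreated total, which left 8 cytosolic and 4 mitochondrial windows, the values were -0.59, 0.10 and -0.69. Over windows that share no base they were -0.44, 0.13 and -0.58, so the mitochondrial median changed sign under each of these settings. Summed over the windows past the floor, the cytosolic genes had 1695 DMSO and 543 untreated reads and the mitochondrial genes 1203 and 246, a log2 difference of -0.65 (interval -0.90 to -0.40), and this value does not depend on scaling. Without EPRS and SARS, left out after their values were seen, it was -0.35 (interval -0.61 to -0.08). Only 4 amino acids had both genes past the floor, and these pairs did not run one way. IARS stood below IARS2 (log2 difference -0.53, interval -1.22 to 0.14) and LARS below LARS2 (-0.65, interval -1.47 to 0.13), while NARS stood above NARS2 (0.33, interval -0.36 to 1.03) and VARS above VARS2 (0.54, interval -0.35 to 1.42). EPRS and IARS2, on chromosome 1 with the start of BPNT1 between theirs, differed by -1.44 (interval -2.18 to -0.72). They serve different amino acids, and EPRS is the lowest member past the floor, so this value is description only.

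The structural classes and the complex gave the same members in another order. All 6 class I cytosolic windows past the floor, those of EPRS, IARS, LARS, QARS, RARS and VARS, lay below the median window, with a median of -0.52. EPRS, the lowest of them, holds a class I and a class II enzyme and was counted with class I. Of the 3 class II windows SARS was below it and NARS and FARSB above. Of the 8 enzymes of the multi-synthetase complex 5 passed the floor, all of them counted with class I above, with a median of -0.62. AIMP1, a scaffold of that complex, had 154 DMSO and 35 untreated reads (-0.10), AIMP2 11 and 5, and EEF1E1 had no base of its own and 0 reads.

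The members below the floor had few reads, and their windows mostly few bases. YARS, the tyrosine enzyme, had 26 DMSO and 19 untreated reads (-1.78, interval -2.68 to -0.84), all from 1387 bases upstream of its start. CARS2 had 52 and 16 reads in 868 bases, MARS 38 and 6, KARS 14 and 1, and SARS2 11 and 3. WARS2 had 6 and 3 reads, GARS 4 and 1, RARS2 1 and 1, AARS 0 and 2, and FARS2 0 and 1. No ratio is read from these 5, which have 79 to 449 unshared bases.

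Several of these genes were covered in part by the windows of other genes. The table does not separate strands, so such reads may belong to either gene. In WARS, the tryptophan enzyme gene, the window AL157871.2 lies 36495 bases past the RefSeq start, wholly inside the gene, with 90 DMSO and 294 untreated reads (-3.93, interval -4.29 to -3.59). AL157871.4 reaches over the end of the gene with 225 and 304 reads (-2.66, interval -2.91 to -2.41). Nearer to the start than these, though not at it, the 388 bases counted for WDR25 lie inside WARS too, and held 1 DMSO and 14 untreated reads. All 3 places in WARS thus had more untreated than DMSO reads, although the DMSO library is the larger.

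The window of ARHGAP9, whose gene lies on the opposite strand, holds the RefSeq start of MARS1 and 3747 bases of that gene, and had 112 DMSO and 93 untreated reads (-1.96, interval -2.37 to -1.54). That of EXOSC6, an RNA exosome subunit gene, holds the last 2643 bases of AARS1, the alanine enzyme gene, and had 1199 and 677 reads (-1.40, interval -1.54 to -1.26). CARS-AS1, inside the cysteine enzyme gene, had 23 and 35 reads (-2.82, interval -3.66 to -2.03). All 1387 bases counted for S100PBP lie inside YARS1 and held 44 and 37 reads (-1.98, interval -2.64 to -1.30). In GARS, the glycine enzyme gene, the 449 bases counted for GARS-DT held 2 and 6 reads. VWA7, which reaches into VARS1, had 197 and 44 reads (-0.08), with 2811 of its 6000 bases in that gene.

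Of the windows past the floor that counted bases inside a gene known as ATF4-induced, 4 of 5 were at least 2-fold lower, against 7.97% of all windows. For windows with bases inside the other cytosolic genes it was 0 of 3, with FARSA-AS1 at -0.14, DND1 in HARS at -0.04 and QRICH1 in QARS at 0.17. For windows with bases inside the mitochondrial enzyme genes it was 0 of 3, with ECM1 in TARS2 at -0.29, TCTE1 in AARS2 at -0.03 and ZMAT2 in HARS2 at 0.42. These windows are not alike in how much of them lies in the synthetase gene. The known ATF4-induced group counted from 2643 bases there (EXOSC6) to 6000 (AL157871.2). The other cytosolic group counted 1432 (QRICH1) to 3516 (FARSA-AS1), and the mitochondrial group 1968 (TCTE1) to 3626 (ZMAT2). With windows of 20 or more reads, a limit chosen after the values were seen, the counts were 6 of 7, 0 of 3 and 1 of 8, against 15.6% of all such windows. Each of these windows also holds the start of its own gene, and 2 of those past the floor lie in WARS.

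**Figure D4:**
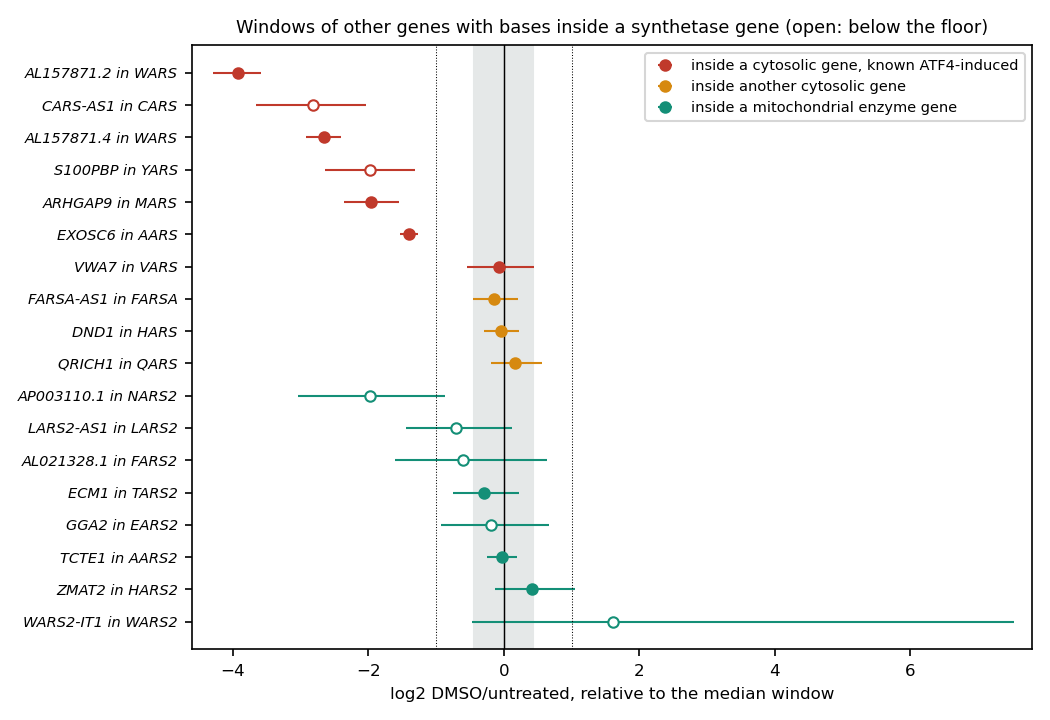
Log2 DMSO/untreated ratio relative to the median window, with exact 95% intervals for counting error, for windows of other genes that count bases inside a synthetase gene and hold 20 or more reads; open circles are below the floor, and the grey band is the middle 50% of all windows. The 6 windows with bases in WARS, CARS, YARS, MARS and AARS lie left of the 2-fold line, and AP003110.1 in NARS2 is the one mitochondrial case.

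The promoters were searched for the C/EBP-ATF response element. It has the core TGATGCAA, or TTGCATCA on the opposite strand, and was looked for on both strands from 250 bases before to 50 after each RefSeq start (GRCh38.p14). It was present in 6 of the 10 genes known as ATF4-induced that have a promoter entry, in 0 of 6 other cytosolic genes and in 0 of 14 mitochondrial ones, against 295 of 27305 genes (1.08%). With any letter at the sixth base (TGATGNAA) the counts were 7 of 10, 0 of 6 and 1 of 14, against 4.46% of all genes; the further matches were TTTCATCA in GARS1 and TGATGGAA in YARS2. LARS1, VARS1, YARS1, AARS2 and VARS2 had no entry. A match is a run of letters and not a measured binding site. The genes known as ATF4-induced were listed from textbook knowledge, which may itself rest on this element. The counts in that list are therefore description and no independent support.

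The 6 exact matches are shown with 11 bases on each side, written 5′ to 3′ along the gene's strand with the match in capitals, because 5 of them lie within 20 bases of the start.
AARS1, chr16:70289675-70289704, minus strand: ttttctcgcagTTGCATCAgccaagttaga
CARS1, chr11:3057407-3057436, minus strand: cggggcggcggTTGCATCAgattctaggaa
IARS1, chr9:92293692-92293721, minus strand: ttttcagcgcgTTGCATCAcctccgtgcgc
MARS1, chr12:57488053-57488082, plus strand: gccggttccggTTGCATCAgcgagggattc
NARS1, chr18:57621804-57621833, minus strand: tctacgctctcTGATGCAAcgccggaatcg
TARS1, chr5:33440956-33440985, plus strand: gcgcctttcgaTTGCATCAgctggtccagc

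The match began 13 bases before the start in IARS1, 4 before it in MARS1, 2 before it in CARS1 and 187 before it in AARS1, and 2 bases past it in TARS1 and 14 past it in NARS1. TTGCATCA is written along the gene in 5 of them and TGATGCAA in NARS1. Set beside the reads, these genes did not form 1 group. IARS was 1.54-fold lower than the median window, NARS was above it, and TARS could not be read. Of the windows that hold part of AARS, CARS and MARS, at least 2-fold lower as given above, that of CARS-AS1 alone lies wholly inside the gene.

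EPRS and SARS, the lowest members past the floor, had no match to either form in these windows. The 250 bases before their RefSeq starts are shown for that reason, with those of IARS1, which holds a match (in capitals), and of its mitochondrial counterpart IARS2, which does not.
EPRS1, chr1:220046506-220046755, minus strand: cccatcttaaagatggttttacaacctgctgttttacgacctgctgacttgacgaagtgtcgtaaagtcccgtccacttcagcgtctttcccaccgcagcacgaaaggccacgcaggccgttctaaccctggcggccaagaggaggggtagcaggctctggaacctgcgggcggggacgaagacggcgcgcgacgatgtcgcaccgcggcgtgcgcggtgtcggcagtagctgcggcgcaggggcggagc
SARS1, chr1:109213643-109213892, plus strand: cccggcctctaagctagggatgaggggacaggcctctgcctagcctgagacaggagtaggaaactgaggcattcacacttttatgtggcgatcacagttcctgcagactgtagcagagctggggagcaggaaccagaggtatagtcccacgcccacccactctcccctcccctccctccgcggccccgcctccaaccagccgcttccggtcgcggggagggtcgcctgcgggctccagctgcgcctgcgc
IARS1, chr9:92293698-92293947, minus strand: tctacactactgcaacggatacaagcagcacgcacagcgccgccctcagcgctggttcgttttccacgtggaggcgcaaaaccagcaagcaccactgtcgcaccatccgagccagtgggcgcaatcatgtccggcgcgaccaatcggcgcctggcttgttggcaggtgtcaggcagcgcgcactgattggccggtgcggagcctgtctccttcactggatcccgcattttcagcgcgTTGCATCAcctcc
IARS2, chr1:220093882-220094131, plus strand: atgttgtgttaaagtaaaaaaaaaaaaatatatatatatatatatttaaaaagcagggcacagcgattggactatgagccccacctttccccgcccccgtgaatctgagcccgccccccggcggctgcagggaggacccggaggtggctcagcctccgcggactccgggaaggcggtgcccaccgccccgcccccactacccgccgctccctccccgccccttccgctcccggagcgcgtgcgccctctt

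The other genes of tRNA charging and handling lay on both sides of the median window. Of 19 such genes 6 passed the floor, against 17.9% of all windows, with a median of -0.38, and 1 was at least 2-fold lower, against 7.97% of all windows past the floor. That was TRMU, which modifies mitochondrial tRNAs, with 79 DMSO and 34 untreated reads (-1.02, interval -1.61 to -0.38). TRMU passed the floor through its untreated reads, so the count of 1 supports nothing on these genes. AARSD1, an alanyl-tRNA editing protein gene, had 179 and 63 reads (-0.73, interval -1.14 to -0.28), and XPOT, the tRNA exporter gene, 436 and 147 (-0.66, interval -0.93 to -0.38). MTFMT, which formylates the mitochondrial initiator tRNA, had 342 and 68 reads (0.10), and ELAC2, which trims tRNA ends, 133 and 19 (0.55, interval -0.12 to 1.36).

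The known ATF4-induced synthetases had a median of -0.77 over 6 windows, and the nearest gene groups are set beside them. The 7 ATF4 pathway windows past the floor had a median of -1.22, 4 of them at least 2-fold lower, against 7.97% of all windows. Of these 4, CHAC1, STC2 and ASNS passed the floor through their untreated reads. Neither the count nor the median, which they help to set, supports anything on the list. The synthetases are therefore not ranked against it. ASNS, the asparagine synthetase gene, had 78 DMSO and 91 untreated reads (-2.45), and ATF4 itself stood at 0.40 with 1610 and 260. The 6 amino acid transporter windows had a median of -0.64 and 1 at least 2-fold lower, against 7.97% of all windows. It was the cystine transporter gene SLC7A11 with 70 and 129 reads (-3.10), which also passed through its untreated reads. The 13 translation factor windows had a median of -0.10. Of these, 1 was at least 2-fold lower and 1 at least 2-fold higher, against 7.97% and 6.86% of all windows, so neither count stands out. The lower was EIF4EBP1, a repressor of cap-dependent initiation, with 227 and 105 reads (-1.12). The higher was the initiation scaffold gene EIF4G1 with 663 and 55 (1.35). Single synthetase windows are not ranked against ASNS or SLC7A11 either, since both passed the floor through their untreated reads.

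**Figure D5:**
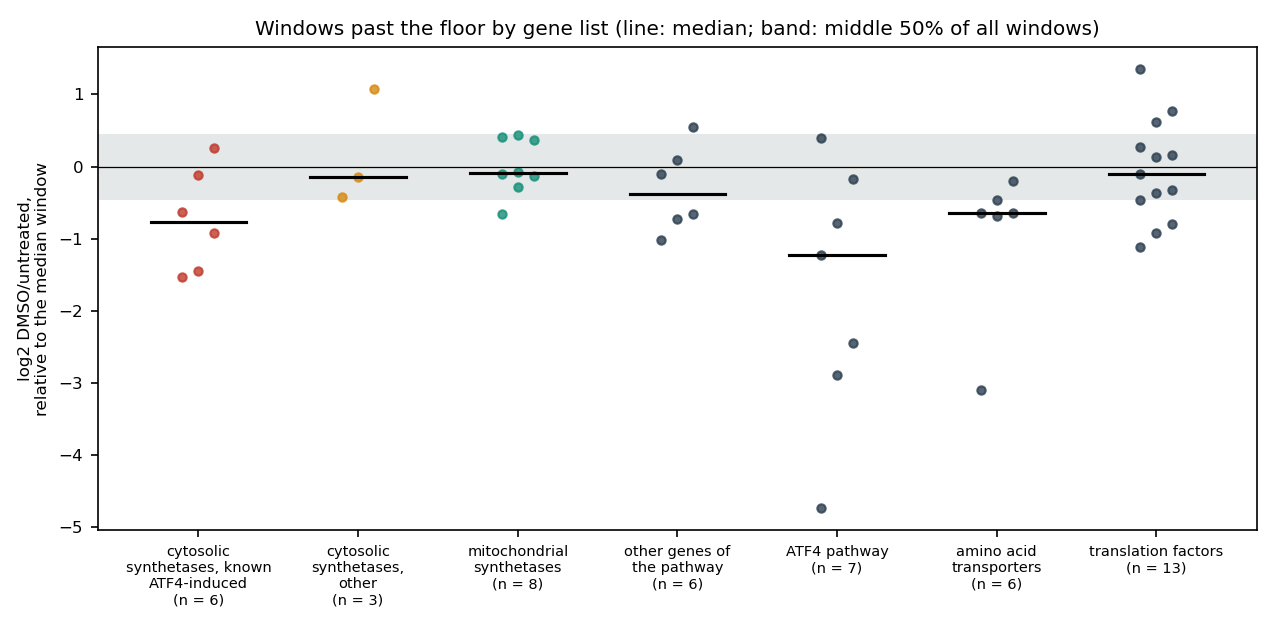
Log2 DMSO/untreated ratio relative to the median window of every window past the floor in 7 gene lists; points are genes, black lines medians and the grey band the middle 50% of all windows. Medians are -0.77 for cytosolic synthetases known as ATF4-induced, -0.14 for the other cytosolic ones, -0.09 for mitochondrial ones and -1.22 for the ATF4 pathway. CHAC1, STC2 and ASNS of the ATF4 pathway passed the floor through their untreated reads, so its median is not compared.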

How the data were processed

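The deposited table holds the read counts of both libraries over windows of 6000 bases, 3000 to either side of an annotated gene start on hg38, per the file headers and coordinates. Per the submitters' processing notes the tools were Bowtie2 2.3.5 and featureCounts 2.0.1, with no roles given; how shared bases were treated is read from the counts. The authors' TPM in the same deposited table equalled CPM in all 36814 windows (tolerance 1e-06), and CPM were computed here from the counts.

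Libraries were scaled with TMM (edgeR 4.0.16, R 4.3.3), under which 3.81 DMSO reads equal 1 untreated read. On that scale the median log2 ratio of windows past the floor was 0.30, so ratios used a prior count of 0.5 reads and were centred on that window. Intervals are exact: Poisson for counts, Clopper-Pearson for ratios, conditional for differences of ratios (scipy 1.17.1). Reads carry no molecular identifiers. With 1 library per treatment no test was possible. The coefficient of variation comes from edgeR's common dispersion over both libraries taken as 1 group, and so includes the treatment. Members were matched to RefSeq by symbol, under the newer name where needed (36 of 36). Ratio calculations were tested on simulated data.

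The members, the gene lists and the rules were chosen with earlier results of these data known. The members are named, except 1 that is counted in the sets but not reported here, and windows inside their genes were taken by overlap. The rule for printing promoters (a match and at least 2-fold lower) selected no member past the floor, so the sequences shown were chosen after the values were seen. Alternatives covered scaling (library totals, DESeq2 1.42.0), floor, prior count, thinning, overlap, fold threshold and length correction.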

Additional observations from a re-analysis of the deposited data

How the results depend on the processing

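No paired analysis was possible because only 1 library stands for DMSO and 1 for untreated cells; leaving either out would end the comparison. Scaling alone changes nothing once ratios are centred on the median window. Uncentred ratios and the restriction to windows that hold the RefSeq start were added after the data were seen. With library totals and no centring the cytosolic median was 0.84 and the mitochondrial one 1.18, EPRS and SARS alone of the members past the floor lay below 0, RARS stood at 0.84, LARS at 0.35 and IARS at 0.64, and 0 cytosolic genes were at least 2-fold lower and 10 synthetase genes at least 2-fold higher. With any read in either library 5 cytosolic and 3 mitochondrial genes were at least 2-fold lower and 2 synthetase genes higher, since windows of very few reads then count. At 1.5-fold the lower genes numbered 4 and 1. The count of higher genes was 0 with a prior count of 2 reads and 0 after thinning, where FARSB lost the floor. No member passed a floor of 20 CPM and 400 reads. With a minimum of 200 unshared bases the cytosolic over mitochondrial level was 0.73 in the DMSO and 1.07 in the untreated library, since shorter windows are added. All 68 values of single members under centred alternatives stayed within their counting interval, but this is no independent check. Those under library totals and DESeq2 equal the main values once centred. The others, with a prior count of 2 reads or after thinning, reuse the same reads. Untreated reads limit the precision, with 9 to 117 behind each cytosolic and 19 to 50 behind each mitochondrial ratio.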

Other observations

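Noncoding windows inside the mitochondrial enzyme genes were read thinly. LARS2-AS1, antisense to LARS2, had 58 DMSO and 20 untreated reads (log2 ratio relative to the median window -0.71, interval -1.44 to 0.12). AP003110.1 in NARS2 had 18 and 15 reads (-1.97, interval -3.03 to -0.87), although the window at the start of NARS2 stood at -0.07. WARS2-IT1, inside WARS2, had 21 and 1 reads, a ratio of 1.62 with an interval from -0.47 to 7.54. Both of these rest on few reads, and neither has a replicate check.

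CALR, the gene of an endoplasmic reticulum chaperone that starts beside FARSA, had 663 DMSO and 95 untreated reads (0.57, interval 0.27 to 0.90). FARSA-AS1, on the other side and inside FARSA, had 401 and 94 (-0.14, interval -0.46 to 0.21). The intervals of these 2 did not overlap, and that of FARSA between them, at -0.08 from 45 reads, held both values.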
